A study of Homo sapiens with 40 samples.

Results

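One day after transfection, U2OS cells with CASP8AP2 siRNA were compared with U2OS cells that had received control siRNA, on 6 of the 40 arrays of the series (3 per siRNA). The arrays were chosen by cell line, day and siRNA in their labels, and all 22069 genes on them were examined. U2OS is a human osteosarcoma line, and the other line of the series, hTERT-RPE1, is a normal retinal pigment epithelial line immortalised with telomerase. Both lines were reverse transfected with 15 nM siRNA, as a pool against CASP8AP2 or as a non-targeting control, so every group used here had been through the same transfection. The siRNA lowers the transcript for a time and leaves the gene intact, no untransfected cells were used here, and 1 line stands for each cell type. The labels call the 3 arrays of each group biological replicates.

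CASP8AP2, also called FLASH, is a large protein of the histone locus body, the nuclear site where the replication-dependent histone genes are transcribed and their mRNAs are processed. These mRNAs carry no poly(A) tail, and CASP8AP2 takes part in cutting their 3′ ends. NPAT and HINFP act at the same genes: NPAT is a co-activator that cyclin E with CDK2 switches on at the start of S phase, and HINFP is a zinc finger factor that binds histone H4 promoters. The question of this comparison is which transcripts move in the tumor line within a day of losing CASP8AP2.

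The siRNA lowered its target. CASP8AP2 was at 6.86, 6.75 and 6.68 on the control arrays and at 5.40, 5.39 and 5.60 on the siRNA arrays (log2 values). The groups lay far apart, and the decrease of 1.30 (SE 0.09, log2) left 40.6% of the control level (limma adjusted p = 1.59e-08). The partners at the histone locus did not pass the test: NPAT differed by -0.03 (95% interval -0.15 to 0.09, adjusted p = 0.879) and HINFP by 0.14 (0.01 to 0.27, adjusted p = 0.26). All 3 lie in the set of 1899 genes that can be named here (8.6% of the array), through the study's own list of names for the genes of its siRNA screen. None of 70 canonical histone genes was in that set, so these genes were not analysed here by name.

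In all, 1295 genes were called (adjusted p under 0.05), which is 5.87% of the genes tested, with 631 higher (2.86%) and 664 lower (3.01%). The balance moved with scaling, to 516 higher and 757 lower with each array centred on its median and 704 higher and 629 lower with cyclic loess. Among the 1899 named genes 163 were called (8.58%), 89 higher and 74 lower. The changes were small. The median called rise of a named gene was 0.37 and the median fall -0.32 on the log2 scale, and only IL13RA2 rose and only CASP8AP2 fell by 1 or more, against 14 and 22 of all genes. Of all genes, 22.6% had 3 siRNA arrays on one side of the 3 control arrays, and 162 of the 163 called named genes did. Levels are relative to the rest of each array, whose mean lay between 6.03 and 6.05, so a change in total RNA per cell would not show, and fewer cells of one kind cannot be told from less RNA per cell.

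The direction of the calls moved with the level of the gene. Of genes with a control mean from 4 to 6, 165 of 5711 were called and 34.5% of these were lower. Between 8 and 10, 516 of 4153 were called and 62.2% of them were lower. Below 4, 44 of 6249 genes were called, 36 of them higher. The median SE was 0.091 below 4 and 0.06 above 10. Whether the level itself takes part in the direction was not tested.

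**Figure D1:**
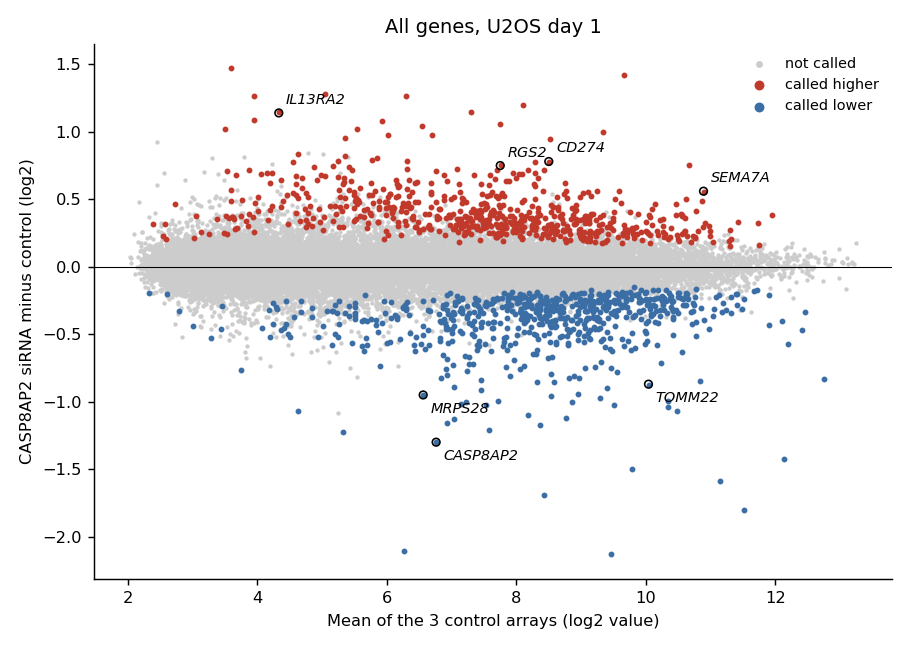
Difference between CASP8AP2 siRNA and control in U2OS on day 1 (log2, vertical axis) against the mean of the 3 control arrays (log2 value, horizontal axis), 1 point per gene for 22069 genes. Red points were called higher (631), blue points lower (664), and circled points carry their gene name, with CASP8AP2 at -1.30 and IL13RA2 at 1.14.

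Of 13 named marker genes of cell types, 0 were called by limma (0 at an unadjusted p under 0.05). Calls were made for 5.87% of all genes and 8.58% of named genes, so 13 genes are too few to tell whether markers were spared. The mesenchymal genes CD44, FN1 and CDH2 were abundant, with control means of 12.17, 12.06 and 10.07. RUNX2 and MSX2, factors of the osteoblast lineage, stood at 7.34 and 7.28, while COL1A2 (4.49) and the bone matrix gene IBSP (3.76) lay under the array medians of 5.58 to 5.64. The retinal pigment genes RLBP1 and BEST1 (4.17 and 4.28), the blood genes CD3E and CD14 (3.09 and 3.42) and the neuronal ELAVL4 (3.69) were low.

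IL13RA2, a decoy receptor for interleukin 13, had the largest rise among named genes. Its control values were 4.35, 4.29 and 4.34 and its siRNA values 5.32, 5.81 and 5.28, so it was a low-level transcript in controls. The increase was 2.21-fold (log2 1.14, SE 0.12, adjusted p = 2.14e-06). CD274, which encodes the immune checkpoint ligand PD-L1, went from 8.45, 8.65 and 8.40 to 9.14, 9.42 and 9.28. CD274 increased 1.72-fold (log2 0.78, SE 0.11, adjusted p = 0.000125).

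RGS2 and RGS4, also among the 12 largest rises, speed the GTP hydrolysis of G alpha subunits and so shorten signals from their receptors. RGS2 was at 7.58, 7.84 and 7.84 in controls and 8.60, 8.43 and 8.49 with siRNA, and RGS4 at 8.40, 8.53 and 8.37 against 9.17, 9.20 and 9.08. Groups that do not overlap were a condition for the choice of the 12 largest rises and falls, so their separation is no further support. The log2 increases were 0.75 (SE 0.08, adjusted p = 1.15e-06) for RGS2 and 0.72 (SE 0.06, adjusted p = 4.8e-08) for RGS4.

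The other 8 of the 12 largest rises were spread over several functions. RHOB, a small GTPase of the endosome, stood at 7.91, 7.81 and 7.93 in controls and 8.53, 8.50 and 8.52 with siRNA, an increase of 0.64 (adjusted p = 0.000295). SEMA7A, a membrane-anchored semaphorin, rose from 10.86, 10.98 and 10.83 to 11.40, 11.48 and 11.46 (log2 0.56, adjusted p = 1.46e-05). These shifts were several times the spread among the 3 arrays of a group. AMMECR1 increased by 0.63, the secreted Wnt inhibitor DKK1 by 0.62, the cytokine gene IL1A by 0.68 and PTGS2, which encodes cyclooxygenase 2, by 0.63. NOS1, the neuronal nitric oxide synthase, increased by 0.56 (adjusted p = 0.0244), and GLDC, the decarboxylase of the glycine cleavage system, by 0.78 (SE 0.22, adjusted p = 0.0339). GLDC varied most, at 5.60, 5.36 and 4.75 in controls and 6.16, 6.23 and 5.68 with siRNA. It was not called without siRNA replicate 1 or 2 or control replicate 2 or 3, nor was NOS1 without any one siRNA replicate or control replicate 1 or 3 (adjusted p up to 0.194 and 0.117 over their alternatives).

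**Figure D2:**
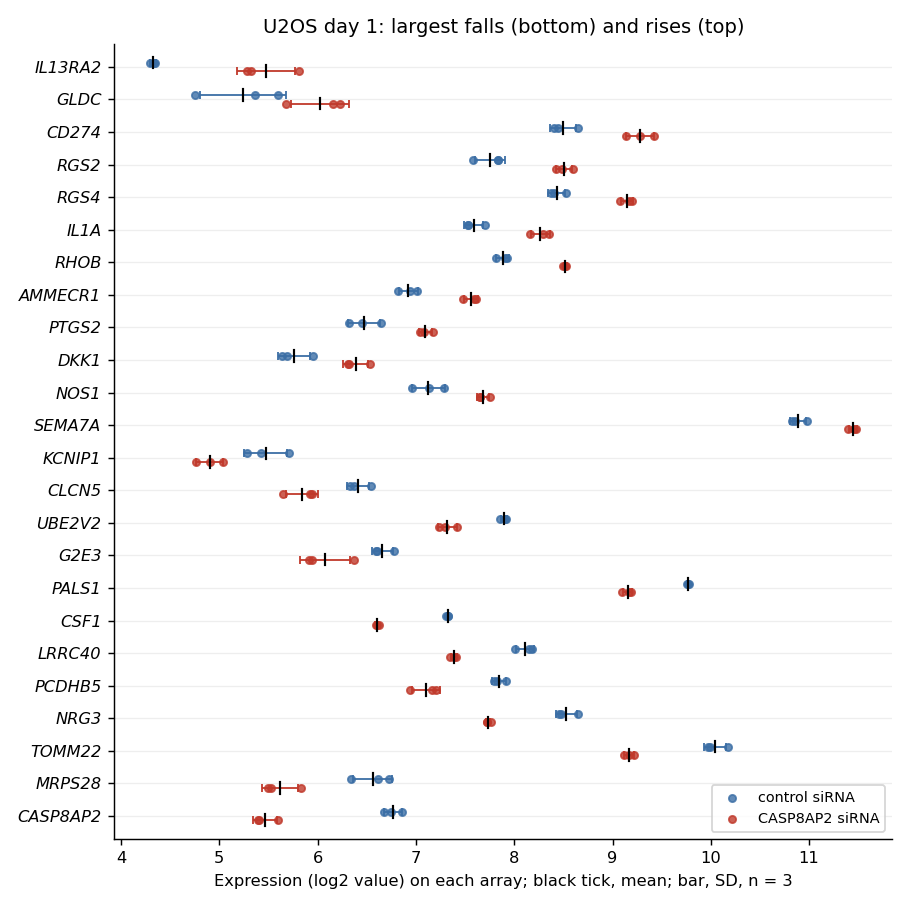
Log2 value of the 12 largest falls (lower rows) and 12 largest rises (upper rows) among named genes on each U2OS day 1 array, with blue points for control siRNA and red points for CASP8AP2 siRNA. Black ticks are means and bars SDs (n = 3). Genes were taken only where the groups did not overlap, and the shifts range from -1.30 for CASP8AP2 to 1.14 for IL13RA2.

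After the target itself, the largest named falls were in 2 genes of mitochondria. MRPS28, a protein of the small mitochondrial ribosomal subunit, was at 6.61, 6.34 and 6.73 in controls and 5.83, 5.49 and 5.53 with siRNA. TOMM22, a receptor of the import pore in the outer mitochondrial membrane, was at 9.97, 9.99 and 10.17 against 9.17, 9.22 and 9.12. The decreases were 0.95 (SE 0.16, adjusted p = 0.000769) and 0.87 (SE 0.08, adjusted p = 4.34e-07) on the log2 scale, so that 51.9% and 54.5% of the control level remained.

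NRG3, a neuregulin that binds ERBB4, decreased by 0.80 (from 8.46, 8.65 and 8.48 to 7.76, 7.72 and 7.72, adjusted p = 7.96e-06). PCDHB5, a clustered protocadherin, decreased by 0.74 (adjusted p = 0.000574), and CSF1, the growth factor of macrophages, by 0.72. CSF1 had the tightest arrays of the named genes that fell, at 7.33, 7.31 and 7.33 in controls and 6.62, 6.60 and 6.59 with siRNA (adjusted p = 4.97e-07). LRRC40 decreased by 0.73, from 8.18, 8.15 and 8.01 to 7.35, 7.41 and 7.39. The polarity scaffold PALS1 (MPP5 in the study's table) decreased by 0.61, the ubiquitin ligase G2E3 by 0.58, the ubiquitin-conjugating variant UBE2V2 by 0.58, the endosomal chloride and proton exchanger CLCN5 by 0.58 and the potassium channel partner KCNIP1 by 0.56. KCNIP1 (adjusted p = 0.0268) was not called without siRNA replicate 2 or 3 or control replicate 1 or 3, with an adjusted p of up to 0.143.

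Of genes without a name here, the 2 largest falls and the 2 largest rises exceeded those of the named genes. ENSG00000124610 was at 9.55, 9.38 and 9.47 in controls and 7.26, 7.23 and 7.51 with siRNA, a decrease of 2.13 (SE 0.12, adjusted p = 9.62e-10). ENSG00000090612 decreased by 2.11 (SE 0.36, adjusted p = 0.000759), with control arrays spread from 5.69 to 6.89. ENSG00000184678 rose from 9.68, 9.81 and 9.51 to 11.06, 11.19 and 11.00, and ENSG00000252421 from 3.65, 3.58 and 3.54 to 5.20, 4.95 and 5.04. The increases were 1.42 (adjusted p = 4.99e-07) and 1.47 (adjusted p = 3.74e-05) on the log2 scale. These 4 unnamed genes too were taken only where the groups did not overlap. Their identity was not resolved here, so canonical histone genes may be among them.

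Gene lists were then read by counts and medians, since only a small share of each list can be named. The 25 lists with a named member held 162 such genes. The lists of NF-kB targets, ATF4 and unfolded protein targets, and mitosis genes had the highest shares of calls among lists with 5 or more named members. The median change of all genes was 0.0.

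**Figure D3:**
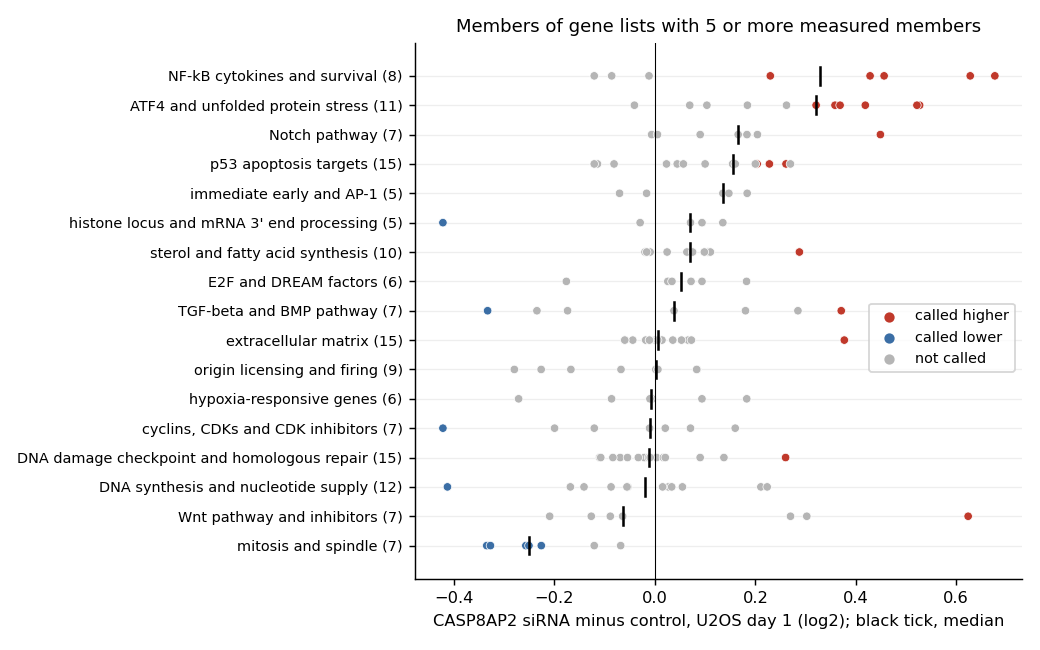
Log2 difference between CASP8AP2 siRNA and control (horizontal axis) for each named member of the lists with 5 or more such members (number in brackets). Red marks called higher, blue called lower and grey not called. Black ticks are list medians, which run from -0.25 for mitosis and spindle to 0.33 for NF-kB cytokines and survival.

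When proteins misfold in the endoplasmic reticulum or amino acids run short, cells raise the factor ATF4 and the chaperones of the endoplasmic reticulum. ATF4 binds an element called CARE, and chaperone genes carry an element called ERSE. In the list of these targets 6 of 11 members rose and 0 fell (54.5% called, against 5.87% of all genes), with a median of 0.32. Their RefSeq promoters (GRCh38.p14) were searched on both strands in the 250 bases before the start, for CARE as TGATGNAA and for ERSE by its usual letters, in which CCAAT and CCACG stand apart with any bases between them. Of the 9 members with a promoter in the table, ASNS and HERPUD1 held CARE and HSPA5 and CALR held ERSE. The letters stood in 3.19% and 0.0806% of all 27305 promoters. The ASNS and HSPA5 promoters are shown because these are the called members with a match, each 5′ to 3′ on the gene's strand with the match in capitals. It begins 68 bases before the start in ASNS (chr7:97872409-97872658, minus strand) and 66 before it in HSPA5 (chr9:125241344-125241593, minus strand).
ASNS: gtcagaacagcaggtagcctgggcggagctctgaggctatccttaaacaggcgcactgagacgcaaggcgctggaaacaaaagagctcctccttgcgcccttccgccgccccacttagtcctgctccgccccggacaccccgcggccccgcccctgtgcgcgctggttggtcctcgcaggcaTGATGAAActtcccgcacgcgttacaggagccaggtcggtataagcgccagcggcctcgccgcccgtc
HSPA5: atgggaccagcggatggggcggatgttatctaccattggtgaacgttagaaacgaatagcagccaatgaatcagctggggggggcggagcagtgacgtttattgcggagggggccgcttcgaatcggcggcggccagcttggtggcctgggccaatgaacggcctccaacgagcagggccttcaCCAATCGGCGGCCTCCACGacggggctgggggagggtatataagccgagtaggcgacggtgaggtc

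ASNS, which makes asparagine, was at 7.90, 7.74 and 7.62 in controls and 8.26, 8.36 and 8.22 with siRNA. It rose 1.44-fold (log2 0.53, SE 0.07, adjusted p = 8.33e-05). HSPA5, the main chaperone of the endoplasmic reticulum (BiP), was at 11.78, 11.78 and 11.63 against 12.03, 12.10 and 12.03, a rise of 0.32 (adjusted p = 0.000902). Neither gene overlapped between groups, which held for 162 of the 163 called named genes and for 22.6% of all genes. The co-chaperone DNAJB9 rose by 0.52, the stress gene NUPR1 by 0.42, the cystine transporter SLC7A11 by 0.37 and the transcription factor CEBPB by 0.36. PHGDH, of serine synthesis, differed by 0.26 (adjusted p = 0.0831), CALR by 0.10, HERPUD1 by 0.18, PDIA4 by 0.07 and MTHFD2 by -0.04, and none of them passed. SLC7A11, CEBPB, HSPA5 and the members that did not pass are named after their values were seen. A fit on the 6 arrays alone called 3 of the list, and CEBPB (adjusted p = 0.0129) was not called without siRNA replicate 3 or control replicate 1.

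NF-kB is kept in the cytoplasm by inhibitors and, once freed, switches on cytokines and its own inhibitors. In this list 5 of 8 named members rose and 0 fell (62.5% called, against 5.87% of all genes and 8.58% of named genes). Their median was 0.33. IL1A was at 7.53, 7.53 and 7.70 in controls and 8.35, 8.29 and 8.16 with siRNA (log2 0.68, SE 0.15, adjusted p = 0.00638). PTGS2 was at 6.64, 6.45 and 6.32 against 7.04, 7.17 and 7.08 (log2 0.63, SE 0.10, adjusted p = 0.00047). Both were higher on every siRNA array. The chemokine CXCL8 (IL8 in the study's table) rose by 0.46 (adjusted p = 0.0257; not called without any one siRNA replicate or control replicate 1 or 3), and TNFAIP2 and the feedback inhibitor TNFAIP3, named after their values were seen, by 0.43 and 0.23. The NF-kB subunit NFKB1 differed by -0.09, the apoptosis inhibitor BIRC3 by -0.12 and complement C3 by -0.01, and none of them passed. The list fell to 3 called members without siRNA replicate 1 or 2 or control replicate 1 or 3, and on the 6 arrays alone. TNFAIP3 (adjusted p = 0.0282) was among those lost in each of these.

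An NF-kB site written as GG, any 3 bases and TTTCC was found in 5.35% of promoters and in 3 of 7 members with a promoter (TNFAIP3, BIRC3 and NFKB1), and an AP-1 site written as TGANTCA in 6.60% and in 2 (CXCL8 and IL1A). TNFAIP3 is shown as the one called member with the first of these. Its 2 matches, on the reverse strand, begin 67 and 55 bases before the start (chr6:137867009-137867258, plus strand).
TNFAIP3: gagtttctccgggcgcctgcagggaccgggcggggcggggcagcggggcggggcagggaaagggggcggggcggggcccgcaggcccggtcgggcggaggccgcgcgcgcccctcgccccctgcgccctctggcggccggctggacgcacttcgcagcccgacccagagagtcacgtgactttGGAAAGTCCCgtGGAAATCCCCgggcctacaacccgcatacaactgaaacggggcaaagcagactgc

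Genes of mitosis moved the other way. Of the 40 genes listed, 7 could be named. Of these 7, 5 fell and 0 rose (71.4% called, against 5.87% of all genes and 8.58% of named genes). Their median was -0.25, and all 7 had a difference below 0. KIF11, the motor that pushes spindle poles apart, was at 9.33, 9.24 and 9.32 in controls and 8.88, 8.99 and 9.02 with siRNA (log2 -0.33, SE 0.05, adjusted p = 0.000251). NUF2, of the outer kinetochore, was at 9.11, 9.04 and 9.07 against 8.76, 8.65 and 8.81 (log2 -0.33, SE 0.05, adjusted p = 0.000256). The arrays of both genes separated by siRNA, as did those of 162 of the 163 called named genes. The kinesin KIF2C fell by 0.26 (adjusted p = 0.0131), and ECT2 and KIF23, which act in cytokinesis and are named after their values were seen, by 0.25 and 0.23. Separase (ESPL1) differed by -0.12 and CDCA8 by -0.07, and neither passed. The fit on the 6 arrays alone called 2 of the list, and 3 were called without control replicate 1, where KIF2C and KIF23 did not pass. KIF2C was also lost without siRNA replicate 2, and ECT2 without siRNA replicate 1.

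Many genes of G2 and mitosis carry a CHR element, written here as TTTGAA, near a CCAAT box. CHR stood in 13.6% of promoters, CCAAT in 33.0% and both in 4.85%, and 5 of the 7 members had both (KIF11, KIF23, ECT2, CDCA8 and ESPL1). Of these 5, the first 3 were called and the other two were not. KIF11 (chr10:92592880-92593129) and KIF23 (chr15:69414099-69414348), both on the plus strand, are shown as called members in which the pair lies close together. The CCAAT box, in reverse, begins 53 and 64 bases before the start and CHR 28 (in reverse) and 55 before it.
KIF11: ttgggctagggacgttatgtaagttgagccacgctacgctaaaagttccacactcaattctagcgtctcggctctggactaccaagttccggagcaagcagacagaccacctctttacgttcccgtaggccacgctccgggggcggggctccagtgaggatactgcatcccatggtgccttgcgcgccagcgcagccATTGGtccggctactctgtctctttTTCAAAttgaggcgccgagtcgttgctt
KIF23: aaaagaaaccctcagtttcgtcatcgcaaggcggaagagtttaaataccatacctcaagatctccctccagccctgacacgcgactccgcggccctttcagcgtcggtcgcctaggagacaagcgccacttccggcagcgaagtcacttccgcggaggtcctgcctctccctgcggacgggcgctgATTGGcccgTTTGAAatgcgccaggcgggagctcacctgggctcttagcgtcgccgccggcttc

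**Figure D4:**
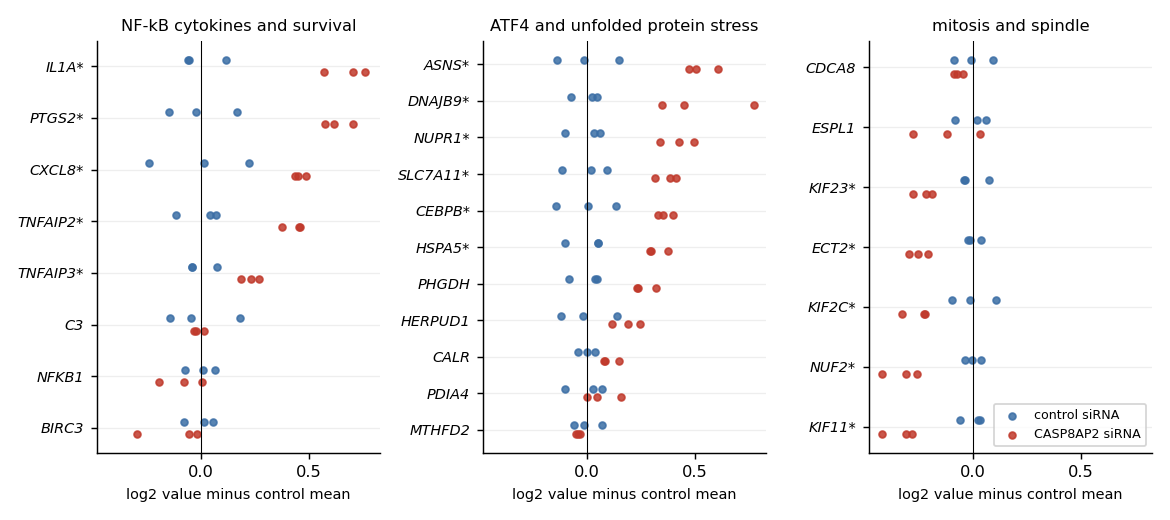
Log2 value of every named member of 3 gene lists on each U2OS day 1 array, minus the mean of the 3 control arrays (horizontal axis). Blue points are control and red points CASP8AP2 siRNA. Asterisks mark called members, which are 5 of 8, 6 of 11 and 5 of 7 from left to right.

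Genes of the G1 to S transition and of DNA replication had few calls on day 1, where 5.87% of all genes and 8.58% of named genes were called. Counts of 1 per list do not set these lists apart from other genes. CCNE2, a cyclin E that partners CDK2, was at 8.77, 8.74 and 8.75 in controls and 8.26, 8.41 and 8.32 with siRNA. The decrease was 0.42 (SE 0.06, adjusted p = 3.88e-05). CCNE2 was the 1 called member of 5 histone locus genes (20.0%) and of the 7 named members of the cyclin and CDK list (14.3%). None of these 7 is a CDK. CCNE1, the other cyclin E, differed by 0.07 (adjusted p = 0.634). DNA2, a nuclease and helicase of replication, fell by 0.41 (adjusted p = 0.000472) as the 1 called member of 12 genes of DNA synthesis (8.33%). In the list of checkpoint and repair genes XRCC3 was the 1 called member of 15 (6.67%), with a rise of 0.26 (adjusted p = 0.0482). That call was lost without any one siRNA replicate or control replicate 1.

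The list of p53 targets in apoptosis also holds other genes of apoptosis and survival, such as MCL1, BCL2L1 and BIRC3. Of its 15 named members, 3 rose and 0 fell (20.0% called, against 5.87% of all genes and 8.58% of named genes). The median was 0.15. PMAIP1 (NOXA) was at 9.95, 9.98 and 9.84 in controls and 10.15, 10.16 and 10.24 with siRNA, a rise of 0.26 (adjusted p = 0.0311). CASP8, the caspase after which CASP8AP2 is named, rose by 0.23 (adjusted p = 0.0238) and APAF1, of the apoptosome, by 0.20 (adjusted p = 0.0492). The arrays of these 3 genes did not overlap, which held for 162 of the 163 called named genes, and the shifts were small. The count was 0 without siRNA replicate 1 or 2 and on the 6 arrays alone, and 1 without siRNA replicate 3, without control replicate 1 or 3, on all 40 arrays, or with each array centred on its median. The pro-apoptotic BBC3 (PUMA) and BAX differed by 0.02 and 0.04.

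Single members were called in other lists, where 5.87% of all genes and 8.58% of named genes were called. DKK1 was 1 of 7 Wnt genes. The Notch target HEY1 rose by 0.45 (adjusted p = 0.0165) as 1 of 7 Notch genes, and HAS2, which makes hyaluronan, by 0.38 (adjusted p = 0.0242) as 1 of 15 matrix genes (6.67%). Among 7 genes of the TGF-beta family BMP6 rose by 0.37 (adjusted p = 0.0233) and TGFB2 fell by 0.33 (adjusted p = 0.0125). PCDHB5 was 1 of 2 named beta protocadherins. Apart from DKK1 and PCDHB5, each of these calls was lost without at least 1 array: HEY1 without siRNA replicate 3 or control replicate 2 or 3, HAS2 without any one siRNA replicate or control replicate 1 or 3, BMP6 without siRNA replicate 2 or 3 or control replicate 1, and TGFB2 without siRNA replicate 1 or control replicate 1 or 3. Another 11 lists, with 41 named genes between -0.28 and 0.21, had 0 members called by limma and 8 at an unadjusted p under 0.05. That unadjusted p was reached by 3873 of all 22069 genes and 397 of the 1899 named genes. Under some alternatives up to 2 members of origin licensing were called lower. Up to 1 was called higher in the lists of E2F and DREAM, interferon-stimulated, hypoxia and immediate early genes. The 11 lists include 9 genes of origin licensing, 6 E2F and DREAM factors, 6 hypoxia genes and 5 immediate early genes. Also among them are 4 histone chaperones, 3 interferon-stimulated genes and 2 histone variants. The list of p53 arrest and feedback targets had only XPC and POLH as its 2 named members. CDKN1A and MDM2 of that list could not be named here.

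The 162 named genes called on day 1, the target left out, were followed in U2OS on day 2, whose control and siRNA arrays are other arrays. Of these, 156 kept their sign and 138 were called in the same direction. Of all genes, 11.8% were called higher and 13.1% lower on day 2 (24.9% in either direction). The fit gave each gene the same spread on both days and in both lines. Calls in these other groups are therefore not independent of those in U2OS on day 1. The 89 that rose had a median of 0.37 on day 1 and 0.47 on day 2, and the 73 that fell had -0.32 and -0.50. UBL4B was the 1 gene called in the opposite direction (0.24 with adjusted p = 0.0353 on day 1, -0.26 with adjusted p = 0.00552 on day 2), and is named after its values were seen.

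The difference between the days was tested as an interaction and was called for 1554 genes (7.04% of all), of which 882 were more positive on day 2 (4.00% of all) and 672 more negative (3.04%). The first made up 56.8% of the calls. This share was 74.0% with cyclic loess normalization and 48.3% with a filter on low values, so its side of an even split depended on the filter. Of the 162 genes 47 were called, 40 of them further in the direction of day 1. DKK1 changed most among these, from 0.62 on day 1 to 2.34 on day 2 (difference 1.72, adjusted p = 5.08e-07), with day 2 values of 5.30, 5.34 and 5.55 in controls and 7.68, 7.72 and 7.81 with siRNA. The largest differences with no call on day 1 were in CCNA1, a cyclin of the germ line (-0.01 and then 2.13), and ANGPT2, an angiopoietin (0.07 and then 2.12). OSGEPL1, of mitochondrial tRNA modification, was at -0.25 on day 1, without passing, and fell by 1.14 on day 2. GLDC went the other way, from 0.78 to -0.47 (difference -1.25, adjusted p = 0.0152), and its day 2 value did not pass (adjusted p = 0.134). CASP8AP2 itself was at -1.30 and -1.73 (difference -0.43, adjusted p = 0.0544).

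**Figure D5:**
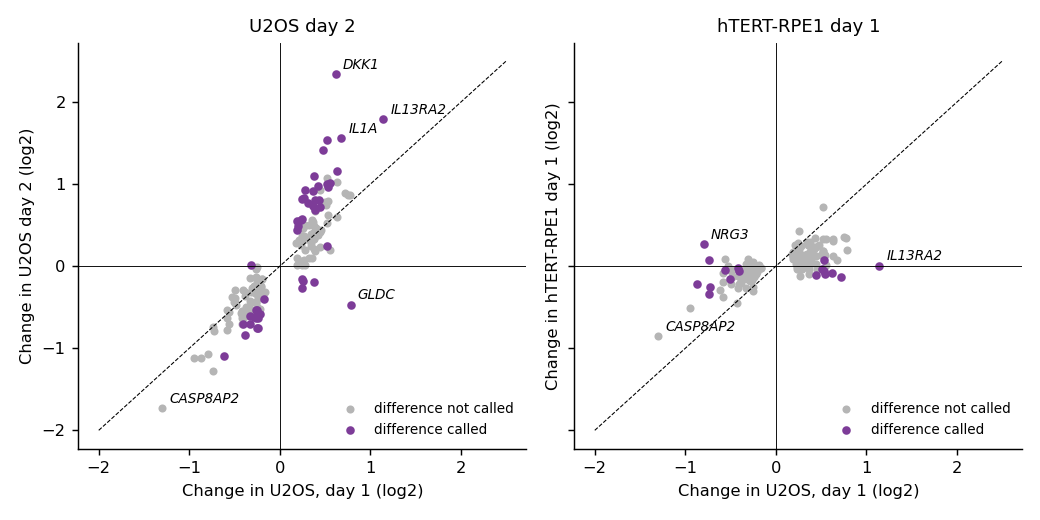
Log2 change of the 163 named genes called in U2OS on day 1 (horizontal axes) against their change in U2OS on day 2 (left) and in hTERT-RPE1 on day 1 (right), with 1 point per gene and purple where the difference between both changes was called. The dashed line marks equal change. On the left 156 of 162 genes other than CASP8AP2 kept their sign, and on the right 155 of 162 had a smaller change in hTERT-RPE1.

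In hTERT-RPE1 cells on day 1, CASP8AP2 fell by 0.85, and the change in U2OS minus that in hTERT-RPE1 was -0.45 (adjusted p = 0.159). There 175 genes were called (0.793% of all), 99 higher (0.449%) and 76 lower (0.344%). Of the 162 named genes 135 kept their sign and 16 were called in the same direction, and 155 had the smaller change in hTERT-RPE1. The medians were 0.12 for the genes that rose in U2OS and -0.08 for those that fell. These genes were chosen by their calls in U2OS, so a smaller change elsewhere is not by itself a difference between the lines, and the smaller fall of the target moves with it. The part of the depth of knockdown in these values was not tested.

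The difference itself was called for 152 genes (0.689%), 62 more positive (0.281%) and 90 more negative (0.408%) in U2OS. Of these 20 were named. Among them 16 were called in U2OS and not in hTERT-RPE1, 2 in hTERT-RPE1 only, 1 in both and 1 in neither. Over all genes 1295 were called in U2OS and 175 in hTERT-RPE1. IL13RA2 was at 3.66, 3.62 and 3.48 in hTERT-RPE1 controls and 3.69, 3.64 and 3.45 with siRNA, with the 2 groups overlapping there, and the change in U2OS minus that in hTERT-RPE1 was 1.14 (SE 0.17, adjusted p = 0.00168). In the same direction of subtraction RGS4 differed by 0.85 (adjusted p = 2.21e-06) and DKK1 by 0.70 (adjusted p = 0.0402). Both were much higher in hTERT-RPE1 controls than in U2OS controls, at 11.87 against 8.43 and 10.48 against 5.76. On the other side NRG3 differed by -1.07 (adjusted p = 0.000115) and PCDHB5 by -0.81 (adjusted p = 0.0305), and NRG3 had a low level in hTERT-RPE1 (control mean 4.02). TOMM22 differed by -0.66 (adjusted p = 0.00661), CSF1 by -0.47 and CCNE2 by -0.40. The DKK1 difference was not called with each array centred on its median or with cyclic loess, nor without siRNA replicate 1 or 2 or control replicate 2 or 3 of U2OS, nor without any one hTERT-RPE1 array. That of PCDHB5 was not called on the arrays compared alone or on all 40 arrays, nor without siRNA replicate 1 or any one control replicate of U2OS, nor without siRNA replicate 2 or control replicate 1 or 2 of hTERT-RPE1.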

How the data were processed

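Total RNA was profiled on Affymetrix Human WT 1.1 arrays. The authors summarised probes per Ensembl gene with affy and a custom probe grouping whose version and genome build are not given in the sources used here, the submitters' processing notes name RMA, and the deposited values are on the log2 scale. Each array's values are relative to its own distribution, and the number of arrays limits precision (median SE 0.087). Values were used as deposited in R 4.3.3 with limma 3.58.1 (lmFit, eBayes): 24 arrays of days 1 and 2, 8 group means, 16 residual degrees of freedom, two-sided tests, Benjamini-Hochberg adjustment over 22069 genes and calls at adjusted p under 0.05. Differences between lines and between days were interaction contrasts. Day 3 arrays were fitted apart, and their values are not reported here. On simulated data for the U2OS day 1 comparison over 22069 genes, 78 of 100 changes of log2 0.5 and 98 of 100 of log2 1 were recovered with 9 false calls.

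Symbols came from the study's own pairing of identifiers and names, which covers screened genes, updated through RefSeq. Named genes were the 12 largest rises and falls among called genes with separate groups, up to 3 called members each way per list, CASP8AP2, NPAT and HINFP, the 3 largest each way per interaction, and the 2 largest unnamed genes each way. A few genes that this rule or a list takes in are not reported here. Members, lists and motifs were chosen with earlier results of these data known. Alternatives were the arrays fitted, 3 normalizations, a filter at log2 5, eBayes with trend and robust, a replicate block, each array left out and a change of log2 1 as well.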

Additional observations from a re-analysis of the deposited data

Results flagged for a closer look

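These are results whose effect differed between the cell lines or the days by a test of the difference (limma interaction term, Benjamini-Hochberg adjustment). Groups of 3 arrays were not tested for single outlying arrays. The difference between lines was called for 152 genes and that between days for 1554.

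On day 1 the change in U2OS minus that in hTERT-RPE1 was -1.07 for NRG3, -0.81 for PCDHB5, -0.66 for TOMM22, -0.47 for CSF1, -0.40 for LRRC40 and -0.40 for CCNE2 on the log2 scale. It was 1.14 for IL13RA2, 0.85 for RGS4, 0.70 for DKK1 and 0.45 for ASNS, the last at an adjusted p of 0.0499. The unnamed genes ENSG00000124610 and ENSG00000184678 had -1.02 and -1.03, and the second of these rose in both lines, by 1.42 in U2OS and 2.45 in hTERT-RPE1.

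In U2OS the change on day 2 minus that on day 1 was positive for CCNA1 (2.14), ANGPT2 (2.05), DKK1 (1.72), IL1A (0.88), IL13RA2 (0.65), NUPR1 (0.56), BMP6 (0.55), RHOB (0.53), ASNS (0.48), SEMA7A (0.46) and APAF1 (0.28). It was negative for GLDC (-1.25), OSGEPL1 (-0.89), PALS1 (-0.48), XRCC3 (-0.44) and NUF2 (-0.37). ENSG00000184678 had 0.68, and ENSG00000252421 had 4.33, going from 1.47 on day 1 to 5.80 on day 2. The day 1 arrays enter both the choice of these genes and this difference.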

How the results depend on the processing

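Of the called genes that the naming rule or the lists took in, the target aside, 48 had a symbol, and 27 of these were called under every alternative that could be computed, with 0 reversed. CASP8AP2 was called under all 14, between -1.37 and -1.25. The U2OS day 1 count of 1295 became 611 on the 6 arrays alone, 36 with a change of log2 1 required as well, and 882 to 1070 without 1 array. The count of differences between lines, 152, became 70 on the arrays compared, 55 with the replicate block and 84 to 150 without 1 array (94 without U2OS siRNA replicate 1, 101 without U2OS control replicate 3, 84 without hTERT-RPE1 siRNA replicate 3). The count of differences between days, 1554, became 996 with the replicate block and 1175 to 1357 without 1 array. Same-numbered control and siRNA arrays did not deviate together in U2OS on day 1 (r of -0.072, 0.014 and -0.008), on day 2 (0.058, 0.014 and -0.009) or in hTERT-RPE1 (0.017, -0.041 and 0.006), so the numbers were not taken to pair arrays. The replicate block gave 924 calls in U2OS on day 1, with 3 of the NF-kB list, 3 of the mitosis list and 1 of the p53 apoptosis list, and the DKK1 and PCDHB5 differences between lines were not called with it. The count of canonical histone genes called lower could not be computed, because 0 of 70 had a symbol. The cause of these shifts was not tested, beyond the fewer arrays that some fits hold.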
